A study of Homo sapiens with 17 samples.

Results

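Polycomb group genes were followed through 5-azacytidine treatment of HepG2 cells by RNA-seq and ATAC-seq. The 10 genes were chosen by symbol: EZH1, EZH2, EED, SUZ12 and JARID2 of Polycomb repressive complex 2 (PRC2), and RNF2, BMI1, PCGF3, CBX2 and CBX7 of Polycomb repressive complex 1 (PRC1). All 10 were found among the 63187 genes of the count table, and 36 of the 58372 counted ATAC peaks carried 1 of their symbols in the authors' annotation. HepG2 is an established human liver carcinoma line, and its genotype is labelled wild type. Cells of every group were grown for 4 days with the medium changed daily, and the groups differed in the dose of 5-azacytidine: 0 µM (control), 2 µM or 10 µM. This cytidine analogue is built into RNA and DNA and traps DNA methyltransferases. RNA was sequenced in 3 libraries per dose, and open chromatin, measured as DNA accessible to a transposase, in 3 control libraries, 3 libraries of the 2 µM dose and 2 of the 10 µM dose.

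Polycomb proteins keep genes silent by modifying histones. PRC2 methylates lysine 27 of histone H3 through EZH1 or EZH2, which act only together with EED and SUZ12, while JARID2 helps to bring the complex to DNA. PRC1 attaches ubiquitin to histone H2A through RNF2 or its relative RING1, paired with 1 of several PCGF proteins such as BMI1 or PCGF3, and its CBX subunits read the mark that PRC2 leaves. EZH2 is known for high levels in dividing cells and in liver cancer, EZH1 for expression in cells that have stopped dividing, and BMI1, CBX7 and EZH2 for silencing CDKN2A, the gene of the cell cycle inhibitor p16.

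RNA totals ran from 35553052 to 46430168 counts per library and ATAC totals from 2896671 to 7864321 counts in peaks. Levels are given as CPM, counts scaled to a common library size, and changes as log2 ratios with a standard error (SE). A gene or peak "rose" or "fell" where edgeR gave an adjusted p under 0.05. No gene lengths were used, so levels are compared between doses and not between genes. Without composition scaling, on total counts, the median log2 change of all tested genes was 0.15 at 2 µM and 0.24 at 10 µM against control, compared with -0.01 and -0.02 in the scaled fit, and the share of called genes that were higher went from 75.2% to 90.6% at 2 µM and from 47.8% to 60.7% at 10 µM. The labels call the cells hepatocytes, and all 8 hepatocyte markers fell at 10 µM, their summed level going from 35449 to 59956 CPM at 0 µM to 1246 to 2071 CPM. At 10 µM 22 of 24 S phase and E2F target genes also fell, with a median log2 change of -2.62. Of all tested genes 48.1% were called at 10 µM against control, 23% higher and 25.1% lower. Replicate 3 at 0 µM and replicate 3 at 2 µM stood apart by mitochondrial messenger RNA, which took 0.271% and 0.231% of their counts, while the remaining 7 libraries had from 0.0664% to 0.143%. Of markers of other cell types, PTPRC and CD3E of leukocytes were at or near 0 (at most 0.0256 CPM) in every library, while LYZ of the same list was at 2326 to 3447 CPM at 0 µM and 57.5 to 89 CPM at 10 µM, the summed fibroblast and stellate cell markers were at most 24.3 CPM and the endothelial ones at most 10.5 CPM, both lower at 10 µM (up to 0.789 and 0.93 CPM). Markers of other epithelium and cholangiocytes summed to 388 to 508 CPM at 0 µM and 495 to 1192 CPM at 10 µM. The sum hides different directions, since of these 4 markers 1 rose and 2 fell at 10 µM, with a median log2 change of -0.68. The part of these shifts in the results on Polycomb genes was not tested. In bulk RNA, fewer cells of a kind and less RNA per cell cannot be told apart, and since the labels do not say that replicates were separate cultures, p-values measure the spread between these libraries.

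The promoters of EZH2 and BMI1 are shown first, because their RNA moved in opposite directions at 10 µM. They come from the RefSeq promoter table of hg38, which holds 300-base windows from 250 bases before to 50 bases from a start site on, and in which 9 of the 10 members had an entry (12 windows); CBX2 is named only. In the 120 bases before the EZH2 start (chr7:148884292-148884411, minus strand) the capitals mark the letters CCAAT, on this strand or as ATTGG for the other strand.

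EZH2 from -120 to -1: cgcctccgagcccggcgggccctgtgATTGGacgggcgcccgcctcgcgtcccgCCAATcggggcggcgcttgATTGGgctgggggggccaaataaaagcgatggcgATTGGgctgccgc

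Over the EZH2 start itself (chr7:148884272-148884301, minus strand) the capitals mark TTTGGCGC, a form of the site that E2F factors bind.

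EZH2 from -10 to +20: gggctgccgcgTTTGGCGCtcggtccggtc

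In the 120 bases before the first BMI1 start (chr10:22320979-22321098, plus strand) the capitals mark CACGTG, the E-box of MYC and related factors.

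BMI1 from -120 to -1: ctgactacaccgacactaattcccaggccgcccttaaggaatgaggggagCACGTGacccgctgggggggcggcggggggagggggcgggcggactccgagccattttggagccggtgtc

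In the 120 bases before the second JARID2 start (chr6:15248735-15248854, plus strand), shown because it held 2 copies of a rare motif, the capitals mark TGACGTCA, the cyclic AMP response element.

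JARID2, second start, from -120 to -1: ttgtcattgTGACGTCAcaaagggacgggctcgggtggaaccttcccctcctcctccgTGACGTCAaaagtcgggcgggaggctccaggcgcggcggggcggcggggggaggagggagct

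The search took 8 motifs on both strands in whole windows: 3 E2F forms, TTTGGCGC with TTTCGCGC and TTTCCCGC, then CCAAT as bound by NF-Y, the palindrome of NRF1, the E-box CACGTG, the element TGACGTCA and the TATA box as TATAAA. No matches of different motifs overlapped in the member windows. CCAAT was in 34.6% of the 35116 promoters of the table, and 4 or more copies, as at EZH2, were in 0.991%. TTTGGCGC was in 0.652% of promoters, CACGTG in 7.26% and TGACGTCA in 1.85%, with 2 or more copies of TGACGTCA in 0.0598%. SUZ12 held TTTCCCGC, present in 1.63% of promoters, 189 bases before its start. The member windows were rich in CpG, the dinucleotide that DNA methyltransferases modify, with 16 CpG at EED, the lowest, and 65 at the second BMI1 start, the highest, against a median of 14 over all promoters. These matches describe the letters in the windows only.

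RNA of the members moved in different directions, and most of the movement was seen at 10 µM. At 2 µM only CBX2 passed the test, falling, while 9 of the 10 did not. Among all tested genes 4.28% were called in that comparison, 3.22% higher and 1.06% lower. At 10 µM against control EZH1, BMI1 and PCGF3 rose and EZH2 and CBX2 fell, 5 of 10 where 48.1% of all genes were called (23% higher and 25.1% lower), so the share lay near the background. The same 5 passed between 10 and 2 µM in the same directions, where 38.4% of all genes were called (16.8% higher and 21.6% lower), and both comparisons share the 10 µM libraries. The median log2 change of the 10 members was 0.00 at 10 µM and -0.19 at 2 µM against control, beside -0.02 and -0.01 over all tested genes. Libraries of both groups did not overlap for 2 members at 2 µM, where 19.2% of all genes did not overlap, for 5 at 10 µM against control, where 58.9% did not, and for 5 between 10 and 2 µM, where 55.7% did not.

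**Figure D1:**
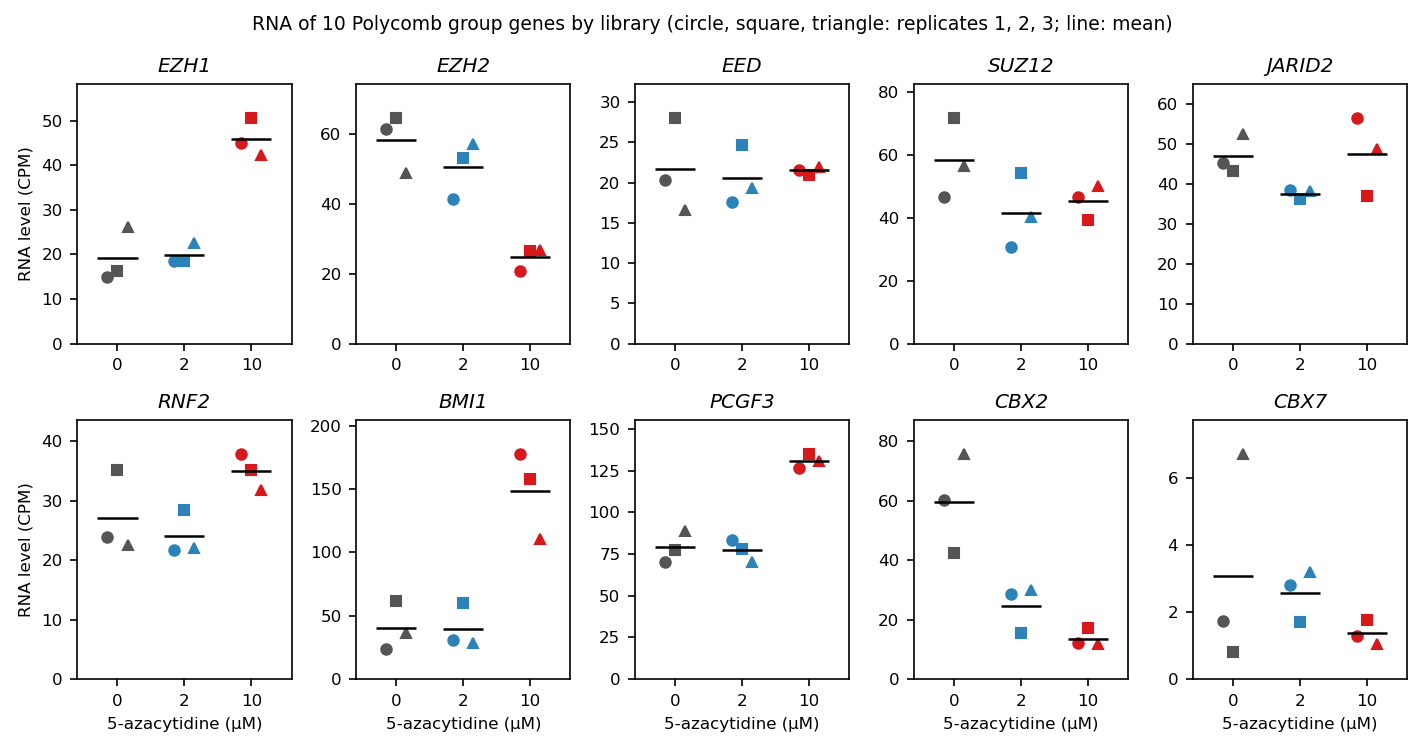
RNA level in CPM (vertical axes, from 0) of each Polycomb gene in every library, by dose of 5-azacytidine in µM (horizontal axes); circles, squares and triangles are replicates 1, 2 and 3 and the line is the mean of 3. EZH1, BMI1 and PCGF3 stand above both lower doses in all 3 libraries at 10 µM, EZH2 stands below them, and CBX2 is lower at both doses than at 0 µM.

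The catalytic subunits of PRC2 moved in opposite directions. EZH1 (ENSG00000108799.13, chr17:42700275-42745040), the methyltransferase with the weaker activity, was at 15, 16.2 and 26.0 CPM in replicates 1 to 3 at 0 µM, at 18.6, 18.6 and 22.5 CPM at 2 µM, and at 45.0, 50.5 and 42.3 CPM at 10 µM. All 3 libraries at 10 µM lay above the other 6, and those of 0 and 2 µM overlapped. EZH1 rose at 10 µM from a mean of 19.1 ± 6.04 CPM (SD, n = 3) to 46.0 ± 4.17 CPM (n = 3), a log2 change of 1.27 (SE 0.229, edgeR adjusted p = 5.75e-04). Between 2 and 0 µM its change was 0.06 (SE 0.226, adjusted p = 0.929), with an interval from -0.38 to 0.50.

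EZH2 (ENSG00000106462.12, chr7:148807383-148884291), the methyltransferase of dividing cells, was at 61.4, 64.4 and 48.7 CPM at 0 µM, 41.2, 53.1 and 57.1 CPM at 2 µM, and 20.7, 26.5 and 26.8 CPM at 10 µM. The 10 µM libraries were the 3 lowest, and those of 0 and 2 µM overlapped. EZH2 fell at 10 µM from 58.2 ± 8.33 to 24.7 ± 3.40 CPM (n = 3 each), a log2 change of -1.24 (SE 0.201, adjusted p = 2.63e-04). Against 2 µM the 10 µM value was -1.03 (SE 0.200, adjusted p = 0.00146). At 2 µM its change was -0.20 (SE 0.198, adjusted p = 0.645).

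Because both genes were counted in the same libraries, their ratio of counts needs no scaling between libraries. EZH1 counts per EZH2 count were 0.244, 0.252 and 0.534 in the 0 µM libraries, 0.450, 0.350 and 0.394 at 2 µM, and 2.17, 1.90 and 1.58 at 10 µM. EZH2 thus had more counts than EZH1 in every library at 0 and 2 µM, and EZH1 had more in every library at 10 µM. Gene lengths were not used, so these counts do not rank the RNA of both genes. Only the shift of the ratio between doses is read. The mean log2 ratio was 2.55 higher at 10 µM than at 0 µM, and a two-sided exact permutation test gave p = 0.1, the smallest that 3 against 3 libraries allow. Between 2 and 0 µM the difference was 0.30, and the exact permutation test gave p = 0.4.

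The non-catalytic core of PRC2 did not pass the test at any dose. EED (ENSG00000074266.23, chr11:86244753-86287615), which binds the methylated histone, was at 20.3, 28.0 and 16.7 CPM at 0 µM, 17.6, 24.7 and 19.4 CPM at 2 µM, and 21.6, 21.0 and 22 CPM at 10 µM. The 10 µM libraries lay within the range of the controls, and the log2 change was -0.01 (SE 0.226, adjusted p = 0.976), with a 95% interval from -0.45 to 0.43. SUZ12 (ENSG00000178691.11, chr17:31937007-32001038), the scaffold of the complex, was at 46.4, 71.5 and 56.4 CPM at 0 µM, 30.6, 54.0 and 40.1 CPM at 2 µM, and 46.5, 39.2 and 49.9 CPM at 10 µM. Its groups overlapped in all comparisons, while within each of the 3 same-numbered pairs the 2 µM library was below the control. The 2 µM value was -0.48 on the log2 scale (SE 0.233, adjusted p = 0.292), with the replicate block over these doses also -0.48 (adjusted p = 0.129), and the 10 µM value -0.36 (SE 0.233, adjusted p = 0.219).

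JARID2 (ENSG00000008083.14, chr6:15246069-15522042), an accessory subunit that is itself without demethylase activity, was at 45.4, 43.3 and 52.5 CPM at 0 µM, 38.5, 36.1 and 38.2 CPM at 2 µM, and 56.5, 37.0 and 48.7 CPM at 10 µM. All 3 libraries at 2 µM were below all 3 controls, and those at 10 µM spread over both groups. Neither dose passed, with a log2 value of -0.32 at 2 µM (SE 0.190, adjusted p = 0.403) beside 0.01 at 10 µM (SE 0.190, adjusted p = 0.966).

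Among PRC1 genes, the PCGF members rose. BMI1 (ENSG00000168283.14, chr10:22321099-22331706), also named PCGF4, was at 23.6, 61.8 and 36.6 CPM at 0 µM, 31.0, 60.2 and 28.6 CPM at 2 µM, and 178, 158 and 110 CPM at 10 µM. Replicate 2 was the highest at 0 and at 2 µM, and every 10 µM library exceeded all 6 others. From 40.6 ± 19.4 CPM it rose to 149 ± 34.6 CPM (n = 3 each), 3.66-fold higher, a log2 change of 1.87 (SE 0.360, adjusted p = 9.11e-04). At 2 µM its change was -0.03 (SE 0.350, adjusted p = 0.981).

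BMI1 has COMMD3 just upstream on the same strand, and an annotated readthrough transcript, COMMD3-BMI1, spans both. The readthrough had 0 counts in all 9 libraries. How reads that fit more than 1 of these genes were divided could not be learned from the labels. COMMD3, chosen after its values were seen, had 309, 408 and 354 counts at 0 µM, then 625, 613 and 581 counts at 2 µM, then 1757, 1794 and 1305 counts at 10 µM. COMMD3 rose at 10 µM by 1.82 on the log2 scale (SE 0.223, adjusted p = 2.96e-05), close in size to that of BMI1, and was at 0.56 at 2 µM (SE 0.218, adjusted p = 0.187).

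PCGF3 (ENSG00000185619.19, chr4:705832-770089), a PCGF protein of variant PRC1 complexes, was at 70.5, 77.4 and 89.0 CPM at 0 µM, 83.5, 78.2 and 70.3 CPM at 2 µM, and 127, 135 and 131 CPM at 10 µM. Groups at 0 and 2 µM overlapped, and the 10 µM libraries lay above both with little spread. PCGF3 rose from 79.0 ± 9.37 to 131 ± 4.10 CPM (n = 3 each), a log2 change of 0.73 (SE 0.166, adjusted p = 0.0029). PCGF3-AS1, an antisense gene that overlaps it, had 240 to 782 counts per library and did not pass in any comparison. The labels do not state strand-aware counting, without which the reads of both genes cannot be told apart.

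RNF2 (ENSG00000121481.11, chr1:185045558-185102603), the ubiquitin ligase also called RING1B, was at 23.8, 35.1 and 22.5 CPM at 0 µM, 21.8, 28.4 and 22 CPM at 2 µM, and 37.9, 35.1 and 31.8 CPM at 10 µM. At 10 µM all libraries exceeded those at 2 µM and overlapped those at 0 µM. Against control the 10 µM value was 0.36 on the log2 scale (SE 0.215, adjusted p = 0.180), and against 2 µM it was 0.54 (SE 0.215, adjusted p = 0.0632). The first value passed on total counts (0.61, adjusted p = 0.0382) and in no other alternative fit. The second passed in 7 of 16 alternative fits. Among them were DESeq2 (0.57, adjusted p = 0.0396), total counts (0.64, adjusted p = 0.0392) and the fit of those doses alone (0.51, adjusted p = 0.0342).

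The 2 CBX members, readers of methylated histone H3, were both lower in mean at 10 µM and differed in how firmly. CBX2 (ENSG00000173894.11, chr17:79777311-79787983) was at 60.1, 42.3 and 75.7 CPM at 0 µM, 28.6, 15.3 and 30.1 CPM at 2 µM, and 12.0, 17.2 and 11.7 CPM at 10 µM. Every treated library was below every control, and the treated groups overlapped each other. CBX2 fell at 2 µM (log2 -1.27, SE 0.289, adjusted p = 0.0269) and further below control at 10 µM, 4.36-fold lower (log2 -2.12, SE 0.297, adjusted p = 8.32e-05). Between 10 and 2 µM the change was -0.86 (SE 0.288, adjusted p = 0.0322).

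CBX2 was the only member called at 2 µM, and it did not pass when any 1 of 3 libraries was left out, namely 0 µM replicate 1 (adjusted p = 0.0680), 2 µM replicate 1 (adjusted p = 0.0737) or 2 µM replicate 2 (adjusted p = 0.101), nor in a fit of those 2 doses alone (adjusted p = 0.0593). Its call between 10 and 2 µM was lost on total counts (adjusted p = 0.0531) and without any 1 of 4 libraries, 2 µM replicate 1 or 3 or 10 µM replicate 1 or 3 (adjusted p from 0.0952 to 0.108). The 5 calls at 10 µM against control held in each of the 16 alternative fits run.

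CBX7 (ENSG00000100307.13, chr22:39130772-39152680) was at 1.72, 0.797 and 6.71 CPM at 0 µM, 2.79, 1.70 and 3.20 CPM at 2 µM, and 1.29, 1.75 and 1.03 CPM at 10 µM, on 31 to 262 counts. Replicate 3 at 0 µM, a library with more mitochondrial messenger RNA, was far above the rest, and the groups overlapped. The log2 change at 10 µM was -1.18 (SE 0.604, adjusted p = 0.125). It became 0.10 (adjusted p = 0.865) without both libraries numbered 3, while without 0 µM replicate 2 it passed the threshold (-1.64, adjusted p = 0.0178), so its direction rested on single control libraries. With all libraries kept and no filter on low counts the 10 µM change passed as well (-1.14, adjusted p = 0.0231). Between 10 and 2 µM CBX7 passed in a fit of those doses alone (-0.94, adjusted p = 0.0464). Leaving out both libraries numbered 3 ended none of the 11 calls made on members over the 3 comparisons.

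**Figure D2:**
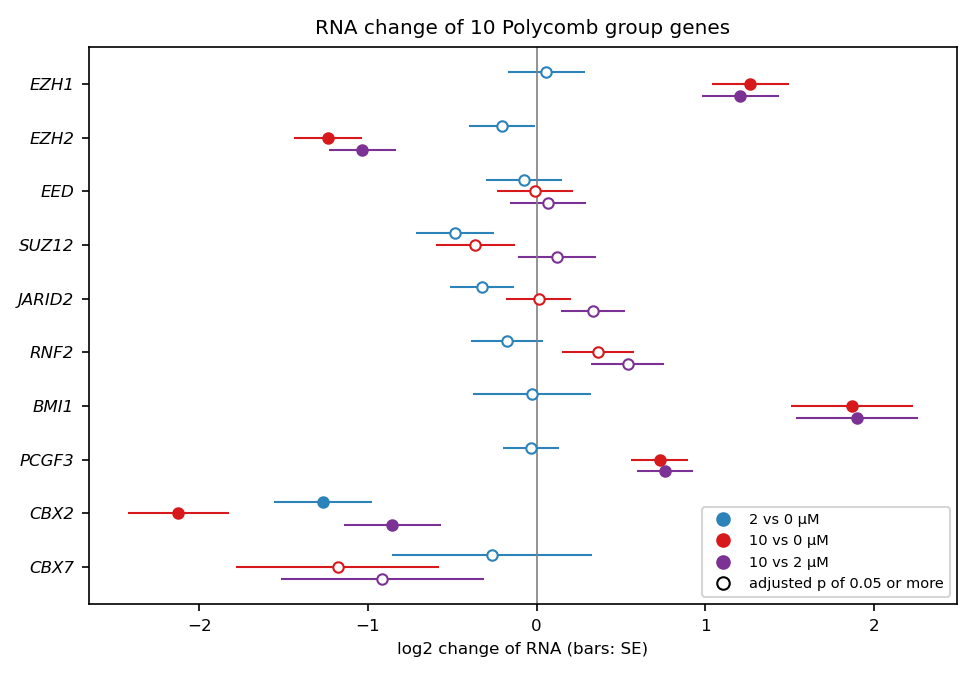
log2 change of RNA (horizontal axis) with its SE (bars) for the 10 Polycomb genes (vertical axis) in the 3 dose comparisons, filled where the adjusted p was under 0.05. The changes at 10 µM run from -2.12 for CBX2 to 1.87 for BMI1, and at 2 µM only CBX2 is filled.

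The RNA profiles most like each member were ranked by Pearson's r of log2 CPM over the 9 libraries among 13873 tested genes. This is a description that shares the libraries and their depth. The shifts between doses were left in, so r is not compared between members that were called and those that were not. EZH2 was most like DONSON (r = 0.994) and XRCC2 (r = 0.991), with an Ensembl gene that has no symbol between them. EZH1 was most like ZSWIM6 (0.992), BMI1 most like DHX36 (0.991), PCGF3 most like MKRN2 (0.990) and CBX2 most like CDC25B (0.986). For members that did not pass, the highest r was 0.978 for RNF2 with EIF3J, 0.974 for CBX7 with ANKZF1, 0.959 for EED with SNORD45B, 0.949 for SUZ12 with TARDBP and 0.919 for JARID2 with ICAM2.

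Other genes of the complexes were taken from fixed lists. Of 9 other PRC2 genes 8 were tested, and at 10 µM 4 fell and none rose, with a median log2 change of -0.53. That is 50% called, near the 48.1% of all genes (23% higher and 25.1% lower). The 4 were EPOP (-2.31, SE 0.403, adjusted p = 4.5e-04), which links PRC2 to elongin, PHF19 (-1.75, SE 0.231, adjusted p = 5.46e-05), which guides the complex to CpG-rich DNA, and the histone-binding proteins RBBP7 (-1.22, SE 0.166, adjusted p = 6.39e-05) and RBBP4 (-0.88, SE 0.175, adjusted p = 0.00113). EPOP had its lowest control value, 2620 counts, in replicate 3 against 7373 and 11473 counts in the others. RBBP4 and RBBP7 also serve in other chromatin complexes. At 2 µM none of the 8 passed, and without 0 µM replicate 3 the counts were 1 higher at 10 µM and 1 lower at 2 µM.

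Of 25 other PRC1 genes, all tested, 9 rose and 4 fell at 10 µM, 52% where 48.1% of all genes were called, and the median log2 change was 0.40. Without 0 µM replicate 1, 5 rose. CBX6, a reader subunit like CBX2, rose from 25.7 ± 1.73 to 101 ± 9.85 CPM (n = 3 each), by 1.97 on the log2 scale (SE 0.206, adjusted p = 8.05e-06). SCML1 was called at both doses, with -0.95 at 2 µM (adjusted p = 0.0281) and -2.23 at 10 µM (adjusted p = 6.73e-06), and no gene of the list was called lower at 2 µM on total counts or without any 1 of 4 libraries, 0 µM replicate 2, 2 µM replicate 1 or 2, or 10 µM replicate 1. FBRS rose (1.27, adjusted p = 6.56e-04) and PCGF2, the closest relative of BMI1, fell (-1.21, SE 0.259, adjusted p = 0.00189). CBX8, a neighbour of CBX2 on chromosome 17, did not pass, at 0.03 (adjusted p = 0.915). The other PCGF genes were divided, since PCGF1 (0.67, adjusted p = 0.0168) and PCGF6 (0.69, adjusted p = 0.0419) rose and PCGF5 fell (-0.67, adjusted p = 0.0271). These 3 calls were weak: that of PCGF5 was lost on total counts (adjusted p = 0.150) or with any 1 of 5 of the 6 libraries left out, all but 0 µM replicate 1. PCGF6 was not called when replicate 1 or 3 at 0 µM, replicate 1 at 2 µM or any 10 µM library was left out (adjusted p from 0.0600 to 0.122), and PCGF1 when replicate 1 at 0 µM or replicate 1 or 3 at 10 µM was (0.0523 to 0.0684).

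Enzymes that remove the Polycomb marks stood in a list of 8 with the associated genes ASXL1, ASXL2 and ASXL3, which are not enzymes. Of the 8, 7 were tested, and 4 rose and none fell at 10 µM, 57.1% where 48.1% of all genes were called and 23% were higher. The count was 1 without 0 µM replicate 1 or 2 and 2 without 10 µM replicate 2 or 3. These were USP16 (0.90, SE 0.201, adjusted p = 0.00248) and MYSM1 (0.99, SE 0.320, adjusted p = 0.0209), H2A deubiquitinases, BAP1 (0.49, adjusted p = 0.0372), and KDM6A (0.61, adjusted p = 0.0433), a demethylase of lysine 27. USP16 alone was called in all 16 alternatives, and BAP1 was at 0.74 on total counts and MYSM1 at 1.49 without 0 µM replicate 3. MYSM1 was lost when replicate 1 or 2 at 0 µM or replicate 2 at 10 µM was left out (adjusted p from 0.0585 to 0.0775), KDM6A with any of these 6 libraries out but replicate 3 at 0 µM, and BAP1 with any out but replicate 2 at 10 µM (up to 0.173 and 0.147). Among 18 Trithorax and COMPASS genes, which oppose Polycomb silencing, 5 rose and 1 fell at 10 µM, 33.3% where 48.1% of all genes were called and 23% were higher. On total counts 9 rose, without 0 µM replicate 1 or 10 µM replicate 2 it was 3, and without 0 µM replicate 2 or 10 µM replicate 3 it was 2. ASH2L fell (-1.11, SE 0.170, adjusted p = 1.66e-04), and RBBP5 (0.94, adjusted p = 0.00109) and KMT2D (0.67, adjusted p = 0.0111) rose. No eraser or Trithorax gene passed at 2 µM.

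**Figure D3:**
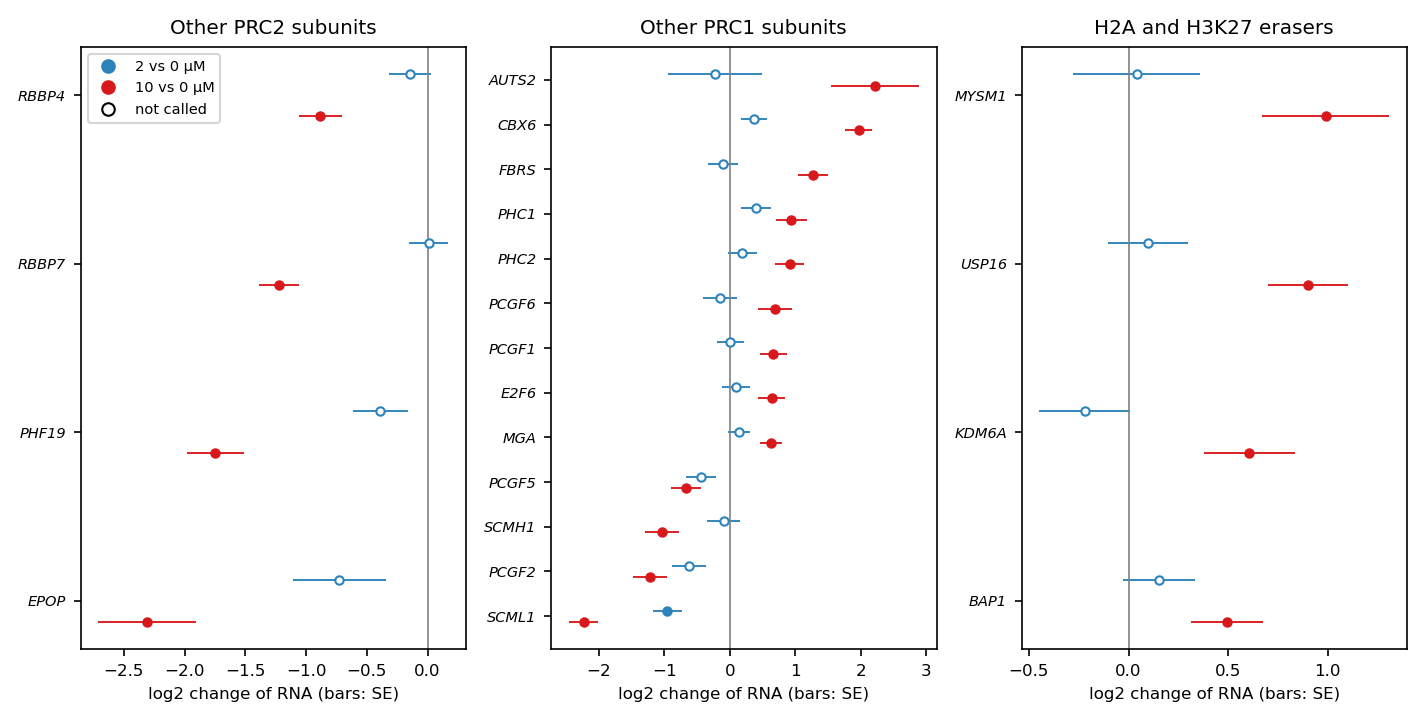
log2 change of RNA against control (horizontal axes) with its SE (bars) at 2 µM (blue) and 10 µM (red) for the genes of 3 lists that were called at 1 or both doses, filled where the adjusted p was under 0.05. At 10 µM the filled PRC2 genes are all lower, 4 of 8, those of PRC1 go both ways, 9 higher and 4 lower, and those of the erasers are all higher, 4 of 7.

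Developmental regulators that Polycomb is known to silence in many cell types were mostly silent here, with 15 of 56 at 0 counts in all libraries and 20 passing the filter on low counts. Among those 20, 12 rose and 3 fell at 10 µM and 5 rose at 2 µM, and without the filter 13 rose and 3 fell at 10 µM. Among all tested genes 48.1% were called at 10 µM (23% higher and 25.1% lower) and 4.28% at 2 µM (3.22% higher and 1.06% lower). A silent gene could pass the filter through its 10 µM libraries alone, so the counts of this list are a description, also beside these shares. The 5 at 2 µM became 2 with the replicate block over those doses, 3 without 0 µM replicate 1, and 2 without 0 µM replicate 2 or either of replicates 1 and 2 at 2 µM. FOXD1, a forkhead factor, had 5, 8 and 14 counts at 0 µM, then 50, 54 and 21 counts at 2 µM, then 434, 549 and 519 counts at 10 µM, and rose at both doses (2.03, adjusted p = 0.0244, and 5.41, adjusted p = 2.03e-06). Its 2 µM value was 2.79 without the libraries numbered 3. Its call at 2 µM was lost in a fit of those doses alone (adjusted p = 0.126), with the block over them (adjusted p = 0.144) and with replicate 1 or 2 of either dose left out (0.0717 to 0.100). FOXC1 rose likewise (1.88, adjusted p = 0.00765, and 4.03, adjusted p = 2.26e-06). PAX3 had 0 counts in all 6 libraries at 0 and 2 µM and 56, 59 and 45 at 10 µM. IRX3 went the other way and fell at 10 µM (-2.56, adjusted p = 1.2e-05).

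CDKN2A, the gene on which BMI1, CBX7 and EZH2 are best known to act, had 45, 83 and 67 counts at 0 µM, then 699, 417 and 303 counts at 2 µM, then 734, 645 and 1090 counts at 10 µM. No treated library was as low as any control, and it rose at both doses, by 2.69 on the log2 scale at 2 µM (SE 0.374, adjusted p = 0.00202) and 3.30 at 10 µM (SE 0.382, adjusted p = 1.85e-05). Of BMI1, CBX7 and EZH2 none passed the test at 2 µM, where CBX2 fell. At 10 µM BMI1 rose, EZH2 fell and CBX7 did not pass. A link between the members and the rise of CDKN2A was not tested.

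Open chromatin was counted in 36 peaks that the authors assigned to 9 of the 10 members, 15 annotated as promoter and 21 elsewhere. JARID2 had 13, CBX7 6, PCGF3 4, EED 3, and BMI1, EZH1, EZH2, RNF2 and CBX2 2 each. SUZ12 had none, and the consensus peak nearest to its start lay 35012 bp away. The calls went both ways and were fewer at promoters, as among all peaks.

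At 2 µM 7 of the 36 rose and 3 fell, where 22.8% of all peaks were called (15.5% higher and 7.3% lower), and with DESeq2 2 rose. Without 0 µM replicate 1 or 2 µM replicate 2 it was 3 that rose, without 0 µM replicate 2 or 3 or 2 µM replicate 3 it was 4, and without 2 µM replicate 2 only 1 fell. The 15 promoter peaks held 1 of these calls, a rise, where 12.1% of all promoter peaks were called (7.04% higher and 5.01% lower). The 21 others held 6 rises and 3 falls, where 28.3% of all other peaks were called (19.8% higher and 8.47% lower). At 10 µM against control 7 of the 36 rose and 8 fell, where 57.5% of all peaks were called (29.9% higher and 27.6% lower). Promoter peaks held 2 rises and 1 fall, where 35.4% of all promoter peaks were called (20.5% higher and 14.9% lower). The others held 5 rises and 7 falls, where 68.8% were called (34.6% higher and 34.1% lower), so the members' shares of calls lay below the background.

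Between 10 and 2 µM 10 of the 36 rose and 10 fell, where 55.1% of all peaks were called (27.5% higher and 27.6% lower), while 6 rose with DESeq2 or without 2 µM replicate 1 and 5 without 10 µM replicate 1. By place, 4 promoter peaks rose and 2 fell, where 38.2% were called (24.5% higher and 13.7% lower), and 6 other peaks rose and 8 fell, where 63.8% were called (29.1% higher and 34.7% lower). Libraries of both groups did not overlap in 19 of the 36 peaks at 2 µM, in 22 at 10 µM and in 23 between these doses, where 38.6%, 68.9% and 67.4% of all peaks did not overlap.

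**Figure D4:**
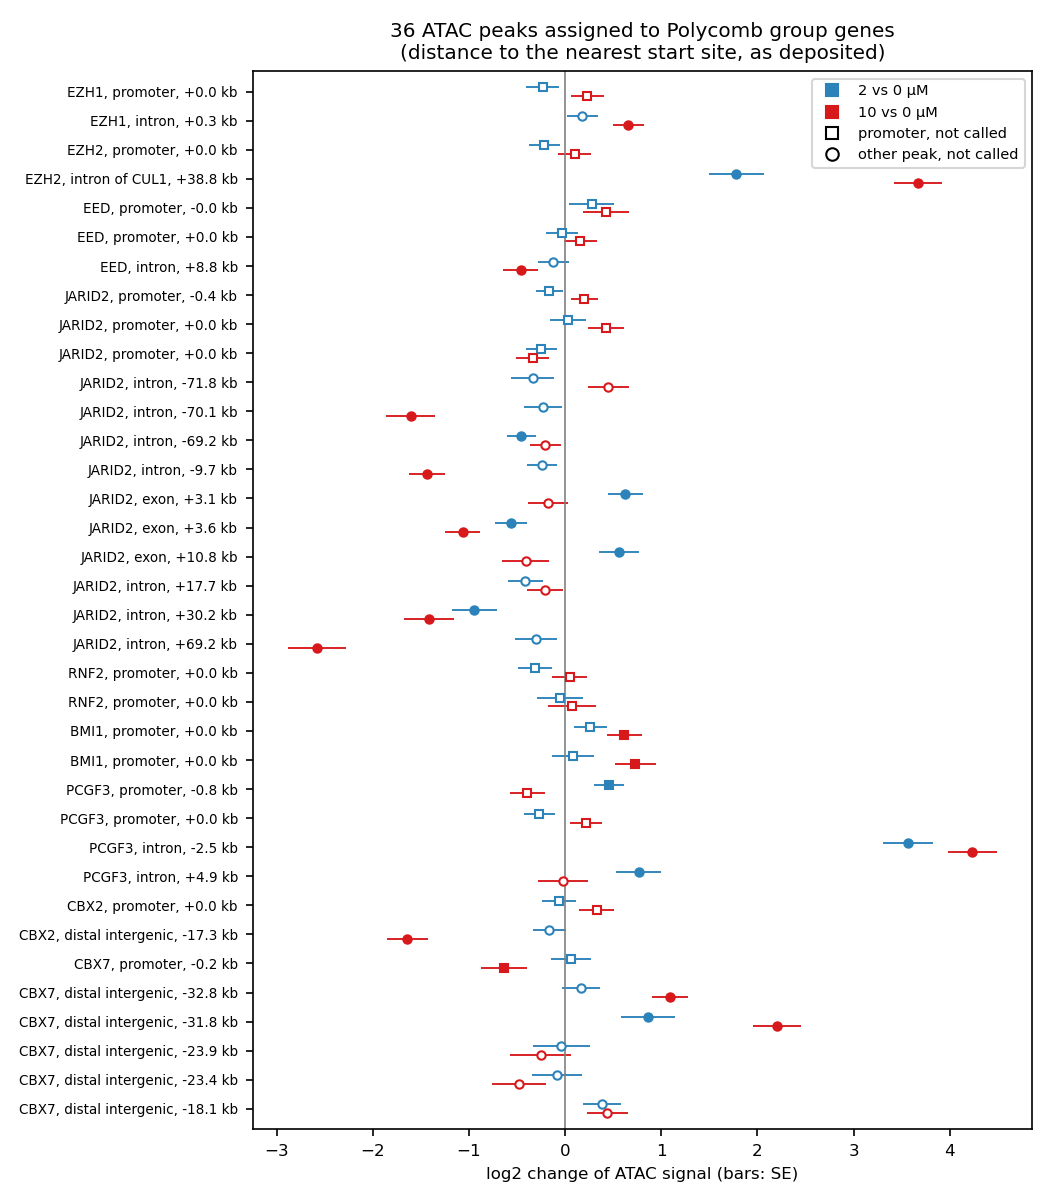
log2 change of ATAC signal against control (horizontal axis) with its SE (bars) at 2 µM (blue) and 10 µM (red) for the 36 peaks, labelled by gene symbol, place and distance in kb to the nearest start site as deposited; squares are promoter peaks and circles others, filled where the adjusted p was under 0.05. Promoter peaks lie between -0.64 and 0.73 at 10 µM, while other peaks reach from -2.58 (JARID2) to 4.24 (PCGF3).

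The largest opening lay inside PCGF3. The peak at chr4:740849-741349, in intron 6, had 2.18, 1.63 and 0.947 CPM at 0 µM, 18.2, 21.0 and 17.6 CPM at 2 µM, and 26.3 and 33.7 CPM at 10 µM. All treated libraries were far above all controls, and both 10 µM libraries were above those at 2 µM. On the log2 scale it rose by 3.57 at 2 µM (SE 0.259, adjusted p = 9.88e-11), by 4.24 at 10 µM (SE 0.251, adjusted p = 6.06e-15) and by 0.67 between them (SE 0.181, adjusted p = 0.00228), the last not without 10 µM replicate 2 (adjusted p = 0.0520). RefSeq places a long non-coding gene, LOC107986246, at chr4:739427-741739 across this peak, and its RNA was not analysed here. PCGF3 RNA was at -0.03 on the log2 scale at 2 µM (adjusted p = 0.954) and rose at 10 µM.

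The other PCGF3 peaks moved less. That at its first start (chr4:705372-705872) was at 24.3, 23.1 and 22.3 CPM at 0 µM, 16.5, 19.6 and 20.7 CPM at 2 µM and 30.7 and 22.4 CPM at 10 µM, and did not pass against control (0.22 at 10 µM, adjusted p = 0.273). A second promoter peak (chr4:742569-743069) and an intron 1 peak (chr4:710850-711350) rose at 2 µM (0.46, adjusted p = 0.0366, and 0.77, adjusted p = 0.0152) and fell from 2 to 10 µM (-0.85, adjusted p = 2.08e-04, and -0.79, adjusted p = 0.0101). Neither rise at 2 µM passed with DESeq2 (adjusted p = 0.168 and 0.0706). The promoter peak did not pass with any 1 of the 6 libraries left out (adjusted p from 0.0578 to 0.207), nor the intron peak with replicate 1 at 0 µM or replicate 2 at 2 µM out (0.0887 and 0.0790). Both had their highest mean at the middle dose. A peak inside PCGF3 that carries the symbol PCGF3-AS1 (chr4:762483-762983) fell at 10 µM against control (-0.87, adjusted p = 6.31e-04). It fell from 2 to 10 µM as well (-1.14, adjusted p = 3.14e-05).

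At EZH2 the promoter and the other peak differed. The promoter peak (chr7:148884151-148884651), which contains the sequence printed above, was at 31.3, 44.0 and 38.3 CPM at 0 µM, 24.7, 32.3 and 39.1 CPM at 2 µM, and 46.8 and 34.4 CPM at 10 µM. The groups overlapped, and its log2 change was 0.10 at 10 µM (SE 0.171, adjusted p = 0.641) while EZH2 RNA fell. The second peak with the symbol EZH2 (chr7:148772491-148772991) lies in intron 9 of CUL1, a cullin gene next to EZH2. By the deposited annotation it is 38832 bp from the nearest EZH2 start, which is not the start under the promoter peak. The peak lies outside EZH2 (chr7:148807383-148884291), beyond the end away from that promoter. It was at 3.40, 1.22 and 3.22 CPM at 0 µM, 7.56, 8.59 and 8.73 CPM at 2 µM, and 30.2 and 32.2 CPM at 10 µM. The 3 groups did not overlap, and it rose by 1.78 at 2 µM (SE 0.287, adjusted p = 2.79e-05) and by 3.67 at 10 µM (SE 0.247, adjusted p = 6.95e-14). CUL1 RNA, chosen after its values were seen, did not pass at either dose (-0.07, adjusted p = 0.879, and 0.27, adjusted p = 0.233).

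**Figure D5:**
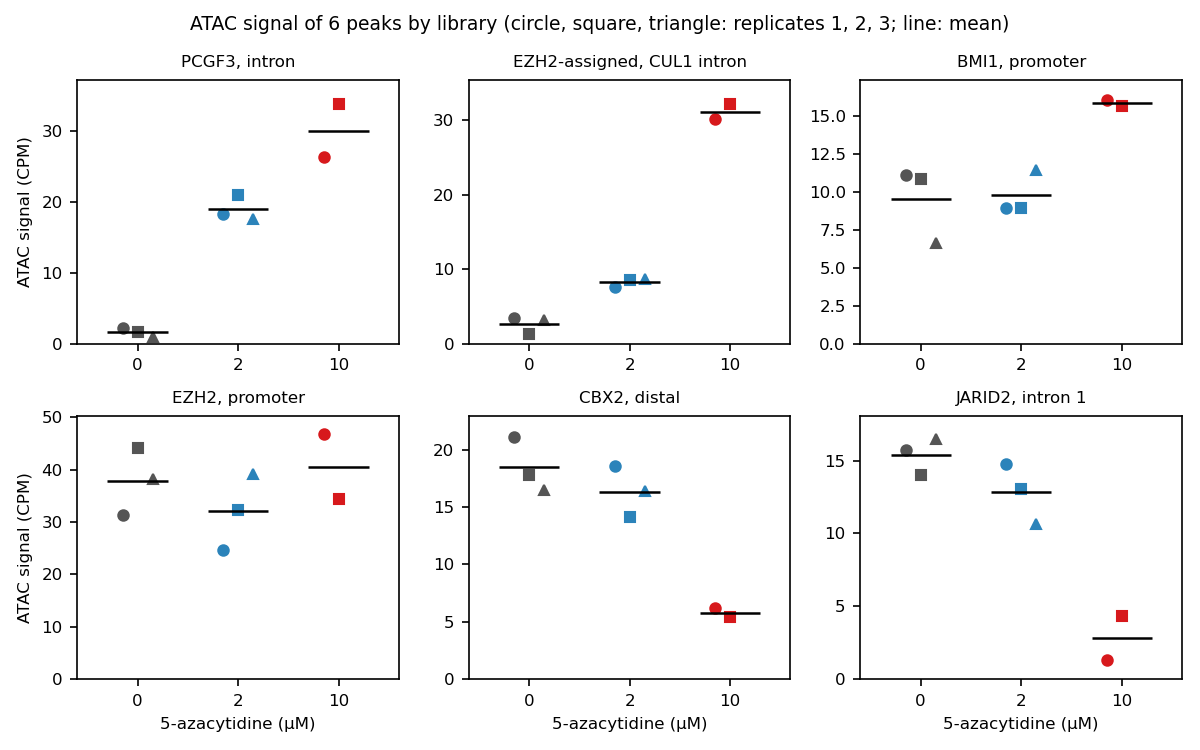
ATAC signal in CPM (vertical axes, from 0) of 6 peaks by library and dose of 5-azacytidine in µM (horizontal axes); circles, squares and triangles are replicates 1, 2 and 3, the line is the mean, and 10 µM has 2 libraries. The PCGF3 intron and CUL1 intron peaks are at most 3.40 CPM at 0 µM and at least 26.3 CPM at 10 µM, the CBX2 and JARID2 peaks are at most 6.17 CPM at 10 µM, and the EZH2 promoter peak overlaps between doses.

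The 2 promoter peaks with the symbol BMI1 rose at 10 µM, as did its RNA. The peak over the first start (chr10:22320650-22321150), which holds the CACGTG shown, was at 17.9, 17.4 and 12.9 CPM at 0 µM, 18.6, 18.6 and 20.2 CPM at 2 µM, and 28.2 and 20.4 CPM at 10 µM. The second (chr10:22321277-22321777) was at 11.2, 10.9 and 6.63 CPM, then 8.93, 8.94 and 11.5 CPM, then 16.1 and 15.7 CPM. Both 10 µM libraries exceeded all others in both peaks, and replicate 3 was the lowest control in each. They rose by 0.62 (SE 0.178, adjusted p = 0.00335) and 0.73 (SE 0.213, adjusted p = 0.00374). With the replicate block over 0 and 10 µM neither passed (adjusted p = 0.190 and 0.154). The numbers of these doses were not taken as pairs, and control replicate 3 has no counterpart at 10 µM. Without 0 µM replicate 3 neither passed (adjusted p = 0.0679 and 0.0763), and the first did not pass without 10 µM replicate 1 (adjusted p = 0.222). The COMMD3-BMI1 promoter peak at the COMMD3 end (chr10:22316420-22316920) was at 0.10 (adjusted p = 0.600). Another COMMD3-BMI1 promoter peak, inside BMI1 (chr10:22325612-22326112), was at 0.08 (adjusted p = 0.688).

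EZH1 had a peak over its start (chr17:42744764-42745264) and one in intron 1 beside it (chr17:42744211-42744711). The first was at 17.2, 19.6 and 20.8 CPM at 0 µM, 15.8, 17.9 and 16.0 CPM at 2 µM, and 26.0 and 18.5 CPM at 10 µM, and did not pass against control (0.23, adjusted p = 0.265). The second was at 17.5, 17.3 and 18.0 CPM, then 16.8, 21.7 and 20.7 CPM, then 28.8 and 26.3 CPM. In the intron both 10 µM libraries lay above the other 6, and the peak rose by 0.66 at 10 µM (SE 0.161, adjusted p = 7.02e-04).

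CBX2, whose RNA fell at both doses, had a promoter peak (chr17:79777916-79778416) at 16.2, 13.6 and 16.1 CPM at 0 µM, 13.7, 13.4 and 15.7 CPM at 2 µM, and 21.9 and 15.7 CPM at 10 µM. The groups overlapped, and the change at 10 µM was 0.33 (SE 0.183, adjusted p = 0.124). Its distal peak (chr17:79760336-79760836), between genes at -17312 bp from the start by the deposited annotation, was at 21.1, 17.8 and 16.5 CPM at 0 µM, 18.6, 14.1 and 16.4 CPM at 2 µM, and 6.17 and 5.44 CPM at 10 µM. At 10 µM this peak fell, at -1.64 on the log2 scale (SE 0.215, adjusted p = 5.82e-08) and was at -0.17 at 2 µM (adjusted p = 0.528). A link between this distal peak and CBX2 RNA was not tested. Between CBX2 and CBX8, a peak with the symbol CBX8 (chr17:79789834-79790334) fell at 10 µM (-0.72, SE 0.207, adjusted p = 0.00317).

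CBX7 had no consensus peak within 17165 bp of its main start. The peak annotated as its promoter (chr22:39135015-39135515) lies inside the gene, at 11.6, 9.65 and 10.4 CPM at 0 µM, 14.1, 9.63 and 9.82 CPM at 2 µM, and 7.65 and 5.44 CPM at 10 µM, and fell at 10 µM (-0.64, SE 0.240, adjusted p = 0.0229). Without 10 µM replicate 2 it did not pass (adjusted p = 0.0883). Of 5 peaks upstream, 2 rose at 10 µM. The peak at chr22:39184437-39184937 was at 3.15, 3.53 and 2.84 CPM at 0 µM, 5.50, 6.19 and 5.86 CPM at 2 µM, and 16.9 and 12.4 CPM at 10 µM, 3 groups that did not overlap, and rose by 0.86 at 2 µM (adjusted p = 0.0241) and 2.2 at 10 µM (SE 0.250, adjusted p = 3.31e-09). The call at 2 µM was lost with DESeq2 (adjusted p = 0.0995) and without any 1 of 5 libraries, each control or 2 µM replicate 2 or 3 (adjusted p from 0.0516 to 0.0964). The peak at chr22:39185436-39185936 rose at 10 µM by 1.09 (SE 0.186, adjusted p = 6.03e-06).

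JARID2 held the most peaks, and at 10 µM those that were called had lost signal. Its 3 promoter peaks did not pass against control at either dose, at 0.20, 0.43 and -0.34 at 10 µM (adjusted p = 0.236, 0.0561 and 0.0994). The last (chr6:15248843-15249343) begins just after the pair of TGACGTCA shown. Of its 10 peaks in introns and exons 5 fell and none rose at 10 µM, where 68.8% of all peaks outside promoters were called (34.1% lower and 34.6% higher). The peak at chr6:15318082-15318582, in intron 1, was at 15.8, 14.0 and 16.5 CPM at 0 µM, 14.8, 13.1 and 10.6 CPM at 2 µM, and 1.34 and 4.35 CPM at 10 µM. Both 10 µM libraries were far below the other 6, and it fell by a log2 change of -2.58 (SE 0.304, adjusted p = 6.87e-09). The peak at chr6:15491137-15491637, in intron 6, was at 26.2, 26.1 and 24.1 CPM, then 22, 18.6 and 23.2 CPM, then 8.45 and 10.7 CPM, and fell by -1.44 (SE 0.186, adjusted p = 4.3e-08). The others that fell were at chr6:15430781-15431281 in intron 3 (-1.61), chr6:15279075-15279575 in intron 1 (-1.41) and chr6:15504917-15505417 in an exon (-1.06). With only 2 libraries at 10 µM, leaving out replicate 1 or replicate 2 there moved the peak at chr6:15279075-15279575 to -0.89 or -2.05 and that at chr6:15318082-15318582 to -1.82 or -3.57, and both stayed called.

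At 2 µM 3 of these 10 JARID2 peaks fell and 2 rose, where 28.3% of all peaks outside promoters were called (8.47% lower and 19.8% higher). The 2 that rose were both in exons (chr6:15504413-15504913, 0.63, adjusted p = 0.011, and chr6:15512110-15512610, 0.56, adjusted p = 0.0464), and both fell from 2 to 10 µM (-0.81, adjusted p = 0.0012, and -0.97, adjusted p = 9.61e-04), the second not with 10 µM replicate 1 left out (-0.58, adjusted p = 0.0851). Of the 3 that fell at 2 µM, 2 also fell at 10 µM, chr6:15279075-15279575 (-0.94 at 2 µM, adjusted p = 0.00328) and chr6:15504917-15505417 (-0.56, adjusted p = 0.0112), and the third (chr6:15431694-15432194 in intron 3, -0.45, adjusted p = 0.0315) was not called at 10 µM. Of these 5 calls at 2 µM, those at chr6:15512110-15512610 and chr6:15431694-15432194 were lost with DESeq2 (adjusted p = 0.158 and 0.0575) and with most single libraries left out (up to 0.253 and 0.219). That at chr6:15504413-15504913 was lost with DESeq2 (0.0762) and with replicate 2 at 0 µM out (0.105), and that at chr6:15504917-15505417 with replicate 2 at 2 µM out (0.0743). JARID2 RNA did not pass at either dose. Beyond its 3' end, a peak in an intron of the neighbour DTNBP1 (chr6:15526001-15526501) was at 8.49, 6.53 and 7.01 CPM at 0 µM, 15.8, 17.2 and 15 CPM at 2 µM, and 34.6 and 33.7 CPM at 10 µM, and rose at both doses (1.13, adjusted p = 4.02e-05, and 2.24, adjusted p = 1.97e-12).

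EED and RNF2, whose RNA did not pass, had promoter peaks that did not pass either. The 2 EED promoter peaks were at 0.42 and 0.16 at 10 µM (adjusted p = 0.134 and 0.451), and the 2 RNF2 promoter peaks at 0.05 and 0.07 (adjusted p = 0.836 and 0.821). An EED peak at chr11:86209984-86210484, which the authors place in an intron of an EED transcript, had 25.5, 23.9 and 21.4 CPM at 0 µM, 24.7, 19.9 and 20.7 CPM at 2 µM, and 14.1 and 20.9 CPM at 10 µM. It fell at 10 µM (-0.46, SE 0.180, adjusted p = 0.028), and without 10 µM replicate 1 the change was -0.19 (adjusted p = 0.497) and without replicate 2 it was -0.82, while with DESeq2 or without 0 µM replicate 1 it did not pass either (adjusted p = 0.0630 and 0.0537).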

How the data were processed

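Unnormalized read counts deposited by the authors, per gene for RNA and per consensus peak for ATAC, were the basis of every test. The submitters' processing notes name HISAT2 2.2.1, HTSeq 2.0.4, DESeq2 1.42.1 and DiffBind 3.12.0 with hg38, without saying which step each served. The score that the authors' deposited consensus list gives each peak was not used. The authors' deposited table of normalized counts, a signal equal to the counts over 1 size factor per library, was used for a check only: its columns for 10 µM replicates 2 and 3 hold each other's counts. Which labelling is right could not be told. RNA results that name 10 µM replicate 2 or 3, or use the replicate block or pairs with 10 µM, follow the unnormalized counts. The dose groups are not affected. Of 63187 gene identifiers 62666 matched a symbol.

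The quasi-likelihood F-test of edgeR 4.0.16 (R 4.3.3) was run in 1 fit per assay, with a mean per dose, TMM scaling and the package's filter, which left 18999 genes and all 58372 peaks. P-values were adjusted by Benjamini-Hochberg over all features in each comparison and come from edgeR where no other tool is named. Each SE was taken as the size of the log2 change divided by the root of its F statistic. The scripts were tested on simulated data. Gene positions and promoters are from RefSeq tables of hg38, and no genome sequence was used. Figures were drawn with matplotlib 3.10.9.

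The rule for what is named took all members, all promoter peaks and up to 2 other peaks per member by adjusted p at 10 µM, and up to 4 called genes per list and comparison by adjusted p; further genes and peaks given were chosen after their values were seen. Lists covered other PRC2 and PRC1 genes, erasers, Trithorax and COMPASS genes, developmental regulators, S phase genes, hepatocyte markers and markers of other cell types. The members and lists were chosen with earlier results of these data known. Same-numbered RNA libraries of 0 and 2 µM deviated together (r = 0.194, 0.264 and 0.283), so these numbers were taken as pairs, while those of the other comparisons were not. The main fits and the permutation tests used no pairs, and pairing entered only through the replicate block. Alternatives were total-count scaling, DESeq2 1.42.0, no filter, fits of 2 doses, a replicate block, leaving out each library, and, chosen after seeing the data, leaving out both RNA libraries numbered 3 at 0 and 2 µM.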

Additional observations from a re-analysis of the deposited data

How the results depend on the processing

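Values with no call could change sign under another setting, and no called value did. For RNA, 9 of the 11 calls on members held in every alternative (176 values, of which 167 kept the call and 9, all of CBX2, did not). For ATAC, 24 of the 45 calls on member peaks held throughout, with 553 of 630 values keeping the call. Where a value went under or over the threshold, the cause was not tested. CBX7 RNA rested on 31 to 262 counts per library, and 10 µM has 2 ATAC libraries.

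At 2 µM RNA-seq called 1521 genes with DESeq2, 1703 with no filter on low counts, 409 in a fit of the 2 doses (with 0 members lower) and 2170 without the libraries numbered 3, against 813. With the replicate block at this comparison, where the numbers were taken as pairs, 713 (2 doses) or 900 (all doses) genes were called, and no call on a member changed. Between 10 and 2 µM 1 member was lower on total counts. ATAC at 2 µM called 8704 peaks with DESeq2, 2 member peaks higher, and between 10 and 2 µM DESeq2 called 6 member peaks higher. Among promoter peaks only, 1 was higher and 0 lower at 2 µM, 2 and 1 at 10 µM, and 4 and 2 between them.

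With each library left out, RNA calls at 2 µM ran from 276 genes (without 2 µM replicate 2) to 1409 (without 0 µM replicate 3), members lower from 0 to 1 and higher 0. Against control at 10 µM they ran from 7478 to 9429, with 3 members higher and 2 to 3 lower, and between 10 and 2 µM from 5478 to 8688, with 3 to 4 higher and 1 to 2 lower. ATAC calls ran from 8570 to 16149 peaks at 2 µM (3 to 7 member peaks higher, 1 to 4 lower), from 29393 to 33600 at 10 µM (5 to 10 and 8 to 9) and from 25273 to 32354 between them (5 to 14 and 8 to 11).

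Uncalled log2 changes of RNA that changed sign at 2 µM were EED 0.073, BMI1 0.11 and PCGF3 0.13 on total counts, BMI1 0.021 and CBX7 0.22 with the block over 2 doses, CBX7 0.010 with the block over all doses, and BMI1 0.10, PCGF3 0.13 and CBX7 0.84 without the libraries numbered 3. At 10 µM they were EED 0.23 on total counts and 0.0010 with no filter, EED 0.024 and JARID2 -0.0042 with the block over 2 doses, EED 0.024 and JARID2 -0.00086 with the block over all doses, and CBX7 0.10 without the libraries numbered 3. For ATAC at 2 µM the JARID2 peak at chr6:15245739-15246239 was at -0.0035 with DESeq2, -0.014 in the fit of 2 doses and -0.013 with its block. At 10 µM the RNF2 peak at chr1:185045122-185045622 was at -0.023 on total counts, -0.0085 with DESeq2, -0.0084 in the fit of 2 doses and -0.11 with its block. The RNF2 peak at chr1:185045760-185046260 was at -0.19 and -0.029 with the block over 2 and all doses, and the PCGF3 peak at chr4:710850-711350 at 0.053 and 0.0073. Between 10 and 2 µM the JARID2 peak at chr6:15248843-15249343 was at 0.0065 with the block over 2 doses.

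Leaving out single libraries, uncalled RNA changes that crossed 0 ran at 2 µM from -0.088 to 0.33 for EZH1, -0.25 to 0.16 for EED, -0.31 to 0.058 for RNF2, -0.44 to 0.42 for BMI1, -0.11 to 0.060 for PCGF3 and -0.71 to 1.02 for CBX7. At 10 µM they ran from -0.19 to 0.21 for EED, -0.11 to 0.18 for JARID2 and -1.64 to 0.10 for CBX7, and between 10 and 2 µM from -0.041 to 0.22 for EED and -0.065 to 0.36 for SUZ12. Uncalled ATAC changes at 2 µM ran from -0.25 to 0.11 at RNF2 chr1:185045760-185046260, -0.14 to 0.13 at JARID2 chr6:15245739-15246239, -0.10 to 0.18 at CBX7 chr22:39135015-39135515 and -0.17 to 0.18 at BMI1 chr10:22321277-22321777. At 10 µM they ran from -0.17 to 0.21 at the EZH2 promoter, -0.30 to 0.20 and -0.18 to 0.20 at the first and second RNF2 peak, -0.25 to 0.091 and -0.062 to 0.33 at the PCGF3 intron 1 and first promoter peak, -0.0031 to 0.19 at EED chr11:86244978-86245478, -0.076 to 0.35 at the EZH1 promoter and -0.061 to 0.65 at JARID2 chr6:15245739-15246239. Between 10 and 2 µM they ran from -0.088 to 0.25 at RNF2 chr1:185045760-185046260, -0.35 to 0.064 at JARID2 chr6:15248843-15249343, -0.042 to 0.67 at JARID2 chr6:15245739-15246239 and -0.18 to 0.33 at EED chr11:86244223-86244723.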
